A study of Homo sapiens with 8 samples.

Results

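Glucose uptake and glycolysis control genes are described here in MCF-10A cells, a human mammary epithelial line. The parental line does not form tumours, which is not shown here for the NeuT cells. The 10 genes are the glucose transporters SLC2A1 and SLC2A3, the hexokinases HK1 and HK2, the phosphofructokinase PFKP, the regulators PFKFB3 and PFKFB4, the lactate dehydrogenase LDHA, the kinase PDK1 and the enolase ENO2. All 10 were found among the 60617 genes of the count table, and all 10 were among the 17693 genes tested. The list was given by name, with no threshold on a measured value, though earlier results of these data were known. Poly(A) RNA was sequenced from 4 groups with 2 libraries each: untreated Empty cells, Empty cells after 12 h in 1 µM JG-98, untreated NeuT cells, and NeuT cells after the same treatment. JG-98 inhibits Hsp70 chaperones, and the series was designed to compare the sensitivity of transformed cells to it. The labels do not say what the NeuT cells carry, whether either line is a clone, or whether the 2 libraries of a group came from separate cultures, so p-values measure the spread between these libraries only. All groups shared a medium with epidermal growth factor, insulin, hydrocortisone, cholera toxin and horse serum.

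Cells take up glucose through SLC2A transporters, and hexokinases trap it inside as glucose-6-phosphate. Phosphofructokinase makes the committed step of glycolysis, and the PFKFB enzymes set the level of its activator, fructose-2,6-bisphosphate. LDHA turns pyruvate into lactate, while PDK1 phosphorylates and inhibits pyruvate dehydrogenase and so limits the entry of pyruvate carbon into the citric acid cycle. Several of these genes, SLC2A1, HK2, PFKFB3, PFKFB4, LDHA and PDK1 among them, are textbook targets of hypoxia-inducible factors (HIF), which bind DNA at a core of ACGTG or GCGTG.

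Promoter windows of 300 bases (250 before to 50 after an annotated start) from RefSeq, build GRCh38.p14, were matched to 9 of the 10 genes by symbol, SLC2A3 being the exception. The 9 genes had 22 windows, since several have more than 1 start. Both strands were searched for ACGTG and GCGTG. At least 1 match was found in 14 of the 22 windows (63.6%), against 48.4% of all 35116 windows of this length. Each of the 9 genes, HK1 and PFKP included, had a window with a match. The share over all genes was not counted, and a gene with several windows has more room for a match. The count of genes is therefore not a result about these genes. Windows of 1 gene can overlap, and a match in these letters is a description and not a binding site. HK2, PFKFB3, LDHA and PDK1 were the 4 genes with a window that held 2 or more matches to ACGTG, counted per strand. A single CACGTG counts as 2 such matches, and the 2 matches of PFKFB3 are the 2 strands of 1 CACGTG. The share of all genes with such a window was not counted. The sequence of 1 such window of each gene is shown, a choice made after the matches were seen. Capitals mark ACGTG or GCGTG on either strand, so that CACGT and CACGC are matches on the reverse strand.
HK2, chr2:74834920-74835219, plus strand: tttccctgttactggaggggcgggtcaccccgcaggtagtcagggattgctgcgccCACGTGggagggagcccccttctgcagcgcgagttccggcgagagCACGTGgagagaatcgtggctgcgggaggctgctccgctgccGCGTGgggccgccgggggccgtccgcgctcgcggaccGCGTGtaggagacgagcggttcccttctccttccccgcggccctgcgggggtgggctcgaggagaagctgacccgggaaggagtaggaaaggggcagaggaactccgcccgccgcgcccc
PFKFB3, chr10:6202682-6202981, plus strand: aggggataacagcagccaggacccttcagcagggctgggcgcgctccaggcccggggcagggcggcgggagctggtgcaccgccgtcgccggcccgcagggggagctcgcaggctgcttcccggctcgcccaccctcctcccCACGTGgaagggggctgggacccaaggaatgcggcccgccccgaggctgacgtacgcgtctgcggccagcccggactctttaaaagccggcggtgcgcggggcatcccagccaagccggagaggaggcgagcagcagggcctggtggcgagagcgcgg
LDHA, chr11:18394313-18394612, plus strand: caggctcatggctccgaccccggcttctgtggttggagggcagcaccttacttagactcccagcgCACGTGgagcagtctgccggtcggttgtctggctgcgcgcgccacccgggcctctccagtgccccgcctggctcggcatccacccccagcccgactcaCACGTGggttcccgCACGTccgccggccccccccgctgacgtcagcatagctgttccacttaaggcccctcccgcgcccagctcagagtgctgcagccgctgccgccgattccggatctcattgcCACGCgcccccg
PDK1, chr2:172555840-172556139, plus strand: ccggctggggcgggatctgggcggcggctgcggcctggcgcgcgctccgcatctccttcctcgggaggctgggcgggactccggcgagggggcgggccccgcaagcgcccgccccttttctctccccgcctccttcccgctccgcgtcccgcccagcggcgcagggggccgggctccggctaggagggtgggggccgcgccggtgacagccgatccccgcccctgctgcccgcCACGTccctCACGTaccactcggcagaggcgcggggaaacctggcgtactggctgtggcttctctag

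The palindrome CACGTG, which holds ACGTG on both strands and is also the E-box bound by basic helix-loop-helix factors, occurred 2 times in the HK2 window, 2 times in the LDHA window and 1 time in the PFKFB3 window. No other window of the 22 held it, so that the tally was 3 of 22 (13.6%), against 7.26% of all windows. The PDK1 window held 2 matches to ACGTG on the reverse strand, 17 and 8 bases before the start, and no CACGTG. The single PFKFB4 window and the single SLC2A1 window each held 1 match to GCGTG and none to ACGTG, which says only that these letters are not in those bases.

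Total counts per library lay between 37341458 and 56861971. A count of 0 leaves room for 3 counts, which is 0.0511 to 0.0787 CPM (read counts scaled to library size, with TMM factors), and such limits cover counting error only. The treated NeuT libraries differed from each other more than the libraries of any other group, with a chi-square per gene of 21.0 against 4.43 to 7.82. All 9 basal epithelial markers were above 1 CPM on average, and the leukocyte markers PTPRC, CD3E and CD68 together reached at most 0.0740 CPM. Summed marker levels moved with the line: basal markers were at 25870 to 27309 CPM in Empty and 34913 to 36776 CPM in NeuT libraries, and 4 luminal markers, of which PGR was at or near 0, at 65.1 to 65.8 against 57.1 to 61.1 CPM. The 2 endothelial markers, mostly PECAM1 with CDH5 at most 0.621 CPM, summed to 10.5 to 15.0 against 8.14 to 9.87 CPM. The 3 fibroblast markers summed to 8.25 to 9.45 CPM in Empty and 68.1 to 82.7 CPM in NeuT libraries, mostly through DCN (2.47 to 3.58 against 62.4 to 77.5 CPM), with 2 of 3 above 1 CPM on average and none at 0 throughout; the part of these marker differences in the differences between lines was not tested. In such bulk RNA, fewer cells of a type and less RNA per cell cannot be told apart.

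Levels between genes were compared as CPM per kilobase of the gene length in the deposited table. LDHA was highest of the 10 genes in each group, with 454 ± 15 CPM per kb in Empty and 629 ± 1.3 CPM per kb in NeuT cells without drug (SD, n = 2 each). SLC2A1 and PFKP changed places between lines. In untreated Empty cells PFKP (104 ± 1.2 CPM per kb, SD, n = 2) lay above SLC2A1 (88.2 ± 0.26), and in untreated NeuT cells SLC2A1 (133 ± 2.5) lay above PFKP (108 ± 1.5). HK1, HK2, PFKFB3, PFKFB4, PDK1, ENO2 and SLC2A3 followed in this order in all 4 groups. In untreated Empty cells they ran from 64.8 CPM per kb for HK1 through 11.2 for HK2, 6.39 for PFKFB3, 2.33 for PFKFB4, 1.69 for PDK1 and 1.09 for ENO2. No 2 neighbours in the order had overlapping libraries in any group. The annotated length matters for this scale, since PDK1 has 14883 bases in the table and the other 9 genes 4281 to 6296.

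**Figure D1:**
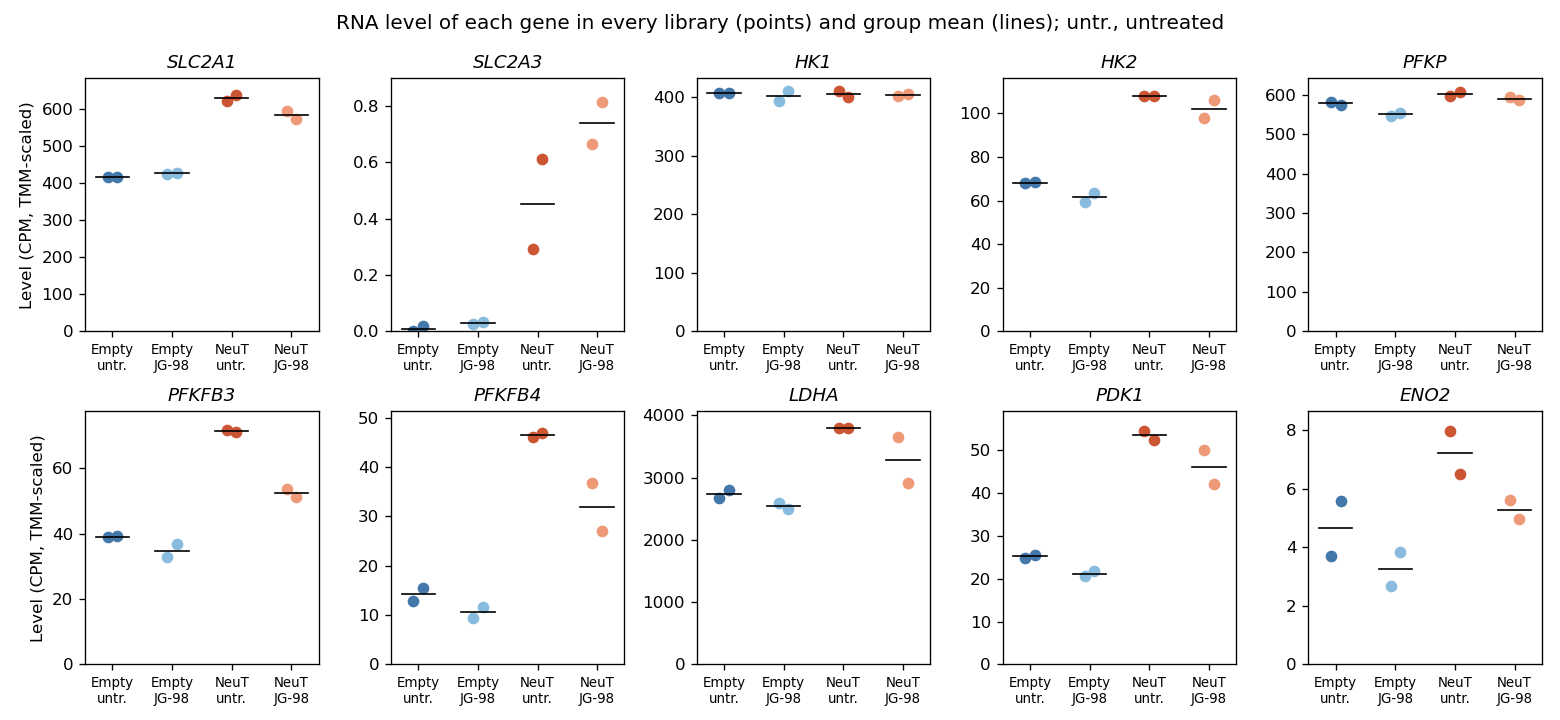
RNA level of each of the 10 genes (y axis, TMM-scaled CPM from 0, own scale per panel) in the 4 groups (x axis), with 1 point per library and a line at the group mean. PFKFB4 and PDK1 show the widest gap between lines apart from SLC2A3, and HK1 lies between 394 and 411 CPM in all 8 libraries.

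The lines were compared first without drug, since the design concerns transformed cells. Of the 9 genes other than SLC2A3, 7 were higher in untreated NeuT than in untreated Empty cells, and HK1 and PFKP did not pass the test. A gene is described as higher or lower where its edgeR adjusted p-value was under 0.05, and in this comparison 42% of all genes tested were called, 21.2% as higher in NeuT. SLC2A3 passed the filter on low counts only through the NeuT libraries, so its call is not counted here. The median log2 difference of these 9 genes was 0.64, against -0.02 for all genes tested.

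At the level of uptake, SLC2A1 (GLUT1, the widespread basal glucose transporter; ENSG00000117394, chromosome 1, 42925375 to 42959176) was at 417 and 416 CPM in the untreated Empty libraries and at 622 and 639 CPM in the untreated NeuT libraries. Both NeuT libraries lay above both Empty libraries, and the log2 difference was 0.60 (SE 0.050; adjusted p = 4.34e-08 by edgeR). SLC2A3 (GLUT3, a high-affinity transporter best known from neurons; chromosome 12, 7919230 to 7936187) had 0 and 1 counts in the untreated Empty libraries and 16 and 33 in the untreated NeuT libraries. The pooled ratio of 51.4 has a 95% exact interval from 8.80 to 2069 for counting error alone. It leaves out the spread between replicates and is not a test, since SLC2A3 passed the filter only through the NeuT libraries. With 0.452 ± 0.23 CPM in NeuT (SD, n = 2) it still had the lowest level of the 10 genes. Its near-identical neighbour SLC2A14 had at most 2 counts in any library, and how reads with several matches were counted is not stated, so the level of SLC2A3 is uncertain.

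The hexokinases parted. HK2 (the inducible hexokinase; ENSG00000159399, chromosome 2, 74833981 to 74893359) was at 67.9 and 68.5 CPM in untreated Empty and at 107.8 and 108.0 CPM in untreated NeuT libraries. The groups did not overlap, and the log2 difference was 0.66 (SE 0.062; adjusted p = 1.69e-07 by edgeR). HK1 (the constitutive hexokinase; chromosome 10, 69269984 to 69401884) was at 408 and 407 CPM in untreated Empty and at 411 and 401 CPM in untreated NeuT libraries. Its log2 difference was -0.01 with a 95% interval from -0.11 to 0.10 (adjusted p = 0.929 by edgeR), and its sign changed with the size factors. Per length, HK2 made up 14.7 and 14.9% of the summed HK1 and HK2 signal in untreated Empty and 21.4 and 21.9% in untreated NeuT libraries. HK1 remained the larger part in all 8 libraries.

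At the phosphofructokinase step, PFKP (the platelet-type subunit; chromosome 10, 3066333 to 3137718) was at 582 and 573 CPM in untreated Empty and at 596 and 608 CPM in untreated NeuT libraries. The log2 difference of 0.06 had a 95% interval from -0.04 to 0.16 and was not called (adjusted p = 0.367 by edgeR), and with total counts as the scale it was -0.00994. The regulators of the step differed far more. PFKFB3 (a bifunctional enzyme that mostly makes fructose-2,6-bisphosphate; ENSG00000170525, chromosome 10, 6144934 to 6254644) was at 38.8 and 39.4 CPM in untreated Empty and at 71.7 and 71.1 CPM in untreated NeuT libraries, a log2 difference of 0.87 (SE 0.068; adjusted p = 1.73e-08 by edgeR). PFKFB4 (its paralogue; ENSG00000114268, chromosome 3, 48517684 to 48562015) was at 12.9 and 15.5 CPM in untreated Empty and at 46.0 and 47.0 CPM in untreated NeuT libraries. Its log2 difference of 1.71 (SE 0.15; adjusted p = 4.23e-06 by edgeR), or 3.26-fold, exceeded that of the other 8 genes apart from SLC2A3. Of its exonic bases, 4.88% overlap UCN2, the largest such overlap among the 10 genes. The PFKFB4 share of the PFKFB3 and PFKFB4 signal per length was 25.0 and 28.3% in untreated Empty and 39.1 and 39.8% in untreated NeuT libraries.

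Around pyruvate, LDHA (ENSG00000134333, chromosome 11, 18394560 to 18408425) was at 2679 and 2805 CPM in untreated Empty and at 3792 and 3803 CPM in untreated NeuT libraries. The log2 difference was 0.47 (SE 0.079; adjusted p = 0.000307 by edgeR). LDHA already made up 98.5 and 98.7% of the summed LDHA and LDHB signal per length in untreated Empty cells, and 99.3 and 99.1% in untreated NeuT cells. PDK1 (chromosome 2, 172555373 to 172608669) was at 24.9 and 25.6 CPM in untreated Empty and at 54.5 and 52.4 CPM in untreated NeuT libraries. At 2.12-fold (log2 difference 1.08, SE 0.081; adjusted p = 1.12e-08 by edgeR) its difference was the next largest after PFKFB4 among the 9 genes other than SLC2A3.

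ENO2 (the neuron-type enolase; ENSG00000111674, chromosome 12, 6913745 to 6923698) was the weakest call. It was at 3.70 and 5.59 CPM in untreated Empty and at 7.97 and 6.50 CPM in untreated NeuT libraries, which did not overlap but lay close. The log2 difference of 0.64 (SE 0.20; adjusted p = 0.0166 by edgeR) fell to 0.37 without untreated Empty replicate 1 (adjusted p-value 0.193) and to 0.50 without untreated NeuT replicate 1 (0.143), and neither passed. Without untreated Empty replicate 2 it was 0.97. ENO1, the main enolase, averaged 3322 ± 94 CPM in Empty cells without drug (SD, n = 2) and did not pass between the untreated lines (adjusted p = 0.0917 by edgeR), and ENO2 contributed at most 0.275% of the enolase signal per length in any library.

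**Figure D2:**
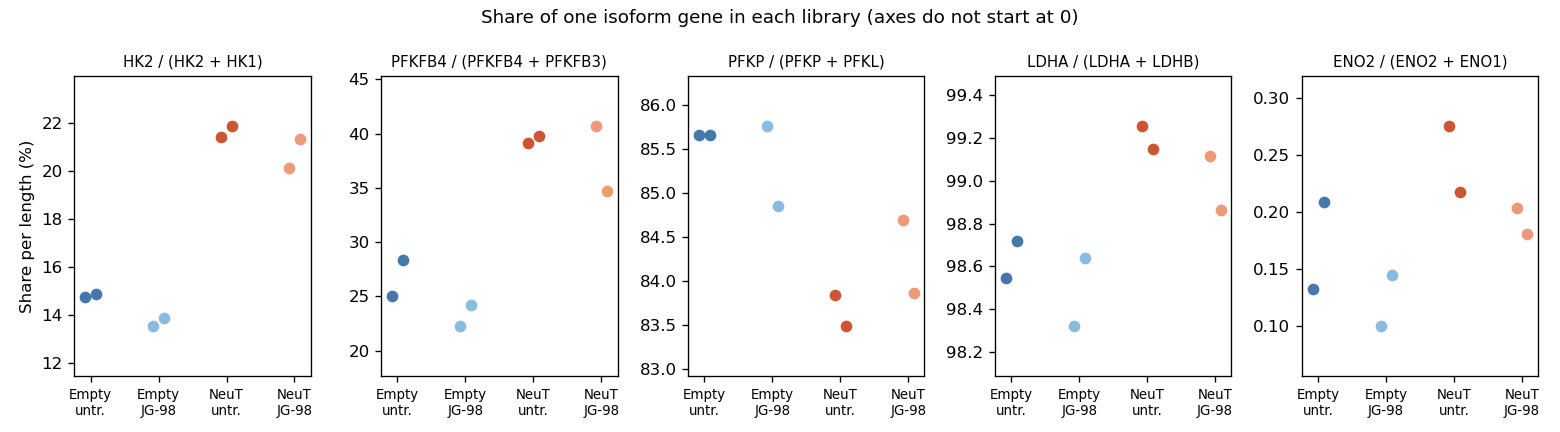
Share (y axis, percent of the summed signal per kilobase) of 1 paralogue of a pair in every library of the 4 groups (x axis), with axes that do not start at 0. The HK2 and PFKFB4 shares lie higher in all 4 NeuT libraries than in all 4 Empty libraries (at least 20.1% against at most 14.9% for HK2, and at least 34.7% against at most 28.3% for PFKFB4), while the ENO2 shares of the lines overlap.

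With JG-98 present, the same comparison of lines again called 7 of the 9 genes other than SLC2A3 higher in NeuT, where 41.7% of all genes tested were called, 21.7% as higher. HK1 (log2 difference 0.01) and PFKP (0.10, adjusted p = 0.118 by edgeR) again did not pass. HK1 turned to -0.07 with total counts as the scale. SLC2A3 had 1 and 2 counts in treated Empty and 36 and 44 in treated NeuT libraries. The pooled ratio of 23.9 had a 95% exact interval from 7.88 to 118 for counting error alone, which again is not a test. Differences under the drug were 1.58 on the log2 scale for PFKFB4, 1.12 for PDK1, 0.73 for HK2, 0.58 for PFKFB3, 0.45 for SLC2A1 and 0.37 for LDHA, with adjusted p in edgeR of at most 0.00204. LDHA rested most on a single library among these, since its log2 difference was 0.20 without treated NeuT replicate 1. ENO2 was higher by 0.68 (adjusted p = 0.0169 by edgeR) and did not pass without treated Empty replicate 1 (0.46, adjusted p-value 0.154) or without treated NeuT replicate 1 (0.59, adjusted p-value 0.0879). Across single omissions it ran up to 0.98.

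**Figure D3:**
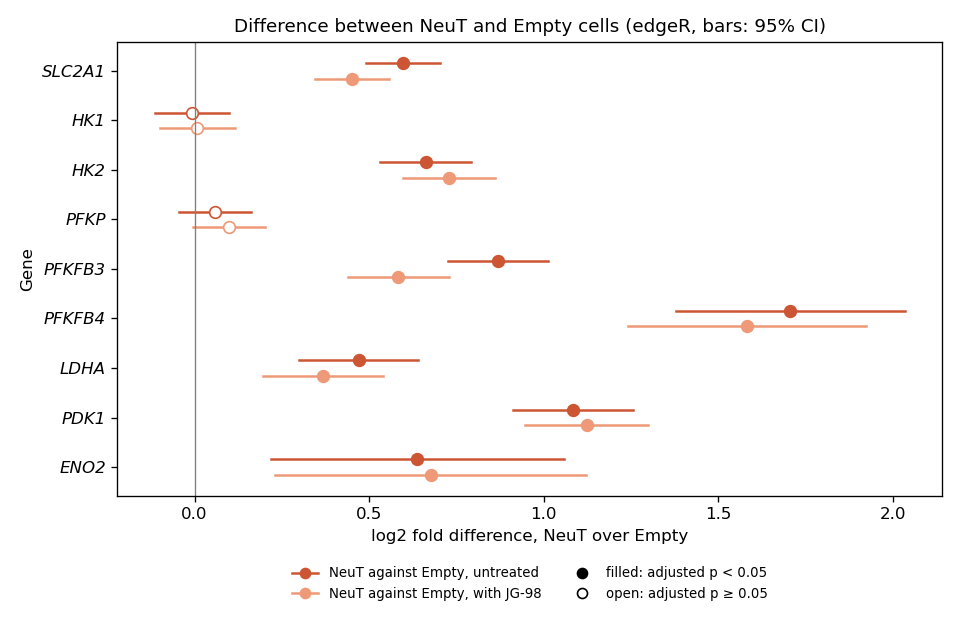
Log2 fold difference of NeuT over Empty (x axis, points with 95% intervals) for 9 of the genes (y axis), without drug and with JG-98, where filled points passed an adjusted p-value of 0.05. SLC2A3 is left out because its Empty libraries held at most 2 counts. The intervals of HK1 and PFKP include 0 in both comparisons, and those of the other 7 genes lie above 0.

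The effect of JG-98 was then examined within each line. In Empty cells none of the 10 genes was called, where 0.339% of all genes tested were called by edgeR. At an unadjusted p under 0.05 there were 5 of the 10 genes, against 9.83% of all genes, and DESeq2 also called 0. In NeuT cells 1 of the 10, PFKFB3, was called lower, where 3.01% of all genes tested were called, 1.01% as lower. An unadjusted p under 0.05 was reached by 6 of the 10 genes in NeuT, against 16.0% of all genes. The changes were small and mostly negative. Leaving SLC2A3 aside, 8 of 9 fitted log2 fold changes were below 0 in Empty (median -0.15) and 9 of 9 in NeuT (median -0.21), against medians over all genes tested of -0.00334 and 0.000213. Both treated libraries lay below both untreated ones for 6 of these 9 genes in Empty and for 8 of 9 in NeuT, where 22.2% and 22.9% of all genes tested did so.

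PFKFB3 in NeuT cells went from 71.7 and 71.1 CPM without drug to 53.6 and 51.0 CPM with it. Both treated libraries lay well below both untreated ones, and the log2 fold change was -0.45 (SE 0.067; adjusted p = 0.000974 by edgeR), a level 0.732 times the untreated one. In the authors' deposited table for NeuT it has a log2 fold change of -0.45 and an adjusted p-value of 0.000864. In Empty cells PFKFB3 went from 38.8 and 39.4 to 32.9 and 36.7 CPM, a log2 fold change of -0.16 (95% interval -0.31 to -0.02) that was not called (adjusted p = 0.429 by edgeR) and ran from -0.25 without treated Empty replicate 2 to -0.0902 without treated Empty replicate 1. The difference between these changes, -0.29 on the log2 scale, was not called (adjusted p = 0.509 by edgeR). It was -0.33 without treated NeuT replicate 1, a fit that leaves 1 library in that group. PFKFB3 in treated NeuT cells stayed above its level in untreated Empty cells, at 51.0 CPM or more against 39.4 CPM or less.

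PFKFB4 had log2 fold changes of similar or greater size with a wider spread. In NeuT its level was 46.0 and 47.0 CPM without drug and 36.7 and 27.1 CPM with it, and in Empty 12.9 and 15.5 CPM without drug and 9.40 and 11.7 CPM with it. The treated libraries lay below the untreated ones in both lines. The log2 fold change of -0.54 in NeuT (SE 0.14) missed the threshold at an adjusted p in edgeR of 0.0737. It passed with DESeq2 (0.00158) and without a filter on low counts (1.85e-08). It was -0.78 without treated NeuT replicate 1 and -0.35 without treated NeuT replicate 2, each fit leaving 1 library in that group. The alternatives gave a range of adjusted p-values up to 0.315, and the authors' deposited table for NeuT gives 0.0171. In Empty the log2 fold change was -0.42 (SE 0.16; adjusted p = 0.399 by edgeR). It passed without a filter (0.00176) and under no other fit that kept both libraries of each group compared. Its log2 fold change ran from -0.60 to -0.28 with 1 library left out.

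LDHA and PDK1 depended on which treated NeuT library was read. LDHA was at 3644 CPM in treated NeuT replicate 1 and 2916 CPM in replicate 2, against 3792 and 3803 CPM without drug, a log2 fold change of -0.21 (SE 0.079; adjusted p = 0.203 by edgeR). Without replicate 1 it was -0.38, and without replicate 2 it was -0.0676. Each of these fits leaves 1 treated NeuT library, so the spread within that group is not measured. LDHA was called without a filter (adjusted p = 0.00445 by edgeR). PDK1 was at 50.1 and 42.2 CPM in the treated NeuT libraries against 54.5 and 52.4 CPM without drug. Its log2 fold change was -0.21 (SE 0.079, adjusted p = 0.186 by edgeR). That value was -0.34 without replicate 1 and -0.10 without replicate 2. In Empty cells PDK1 went from 24.9 and 25.6 to 20.5 and 21.8 CPM, a log2 fold change of -0.25 that was not called (adjusted p = 0.290 by edgeR). LDHA in Empty went from 2679 and 2805 to 2587 and 2500 CPM and was not called either (adjusted p = 0.714 by edgeR).

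SLC2A1 was not called in either line. In Empty cells it was at 417 and 416 CPM without and at 426 and 427 CPM with JG-98, and in NeuT cells at 622 and 639 CPM without and at 594 and 572 CPM with it. The log2 fold changes were 0.03 (95% interval -0.07 to 0.14) and -0.11 (95% interval -0.22 to -0.01), with adjusted p in edgeR of 0.891 and 0.270. The difference of -0.15 between them was not called (adjusted p = 0.645 by edgeR). HK2 had log2 fold changes of -0.15 in Empty and -0.08 in NeuT, PFKP of -0.07 and -0.03, HK1 of -0.02 and -0.00438, and ENO2 of -0.49 and -0.45, none of them called (adjusted p in edgeR 0.269 to 0.982). For HK1 the 95% intervals ran from -0.13 to 0.09 in Empty and from -0.11 to 0.10 in NeuT, while for ENO2 they ran from -0.94 to -0.04 and from -0.87 to -0.04. The ENO2 libraries with and without drug overlapped in Empty cells, and with 1 library left out its log2 fold change ran from -0.80 to -0.16 in Empty and from -0.60 to -0.30 in NeuT. That of HK2 in NeuT ran from -0.15 to -0.0264. SLC2A3 had 49 counts in total in untreated and 80 in treated NeuT libraries, a log2 fold change of 0.71 that was not called (adjusted p = 0.521 by edgeR) and ran from 0.27 (without untreated NeuT replicate 1) to 1.33 (without untreated NeuT replicate 2). In Empty it was at or under the floor in all 4 libraries.

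**Figure D4:**
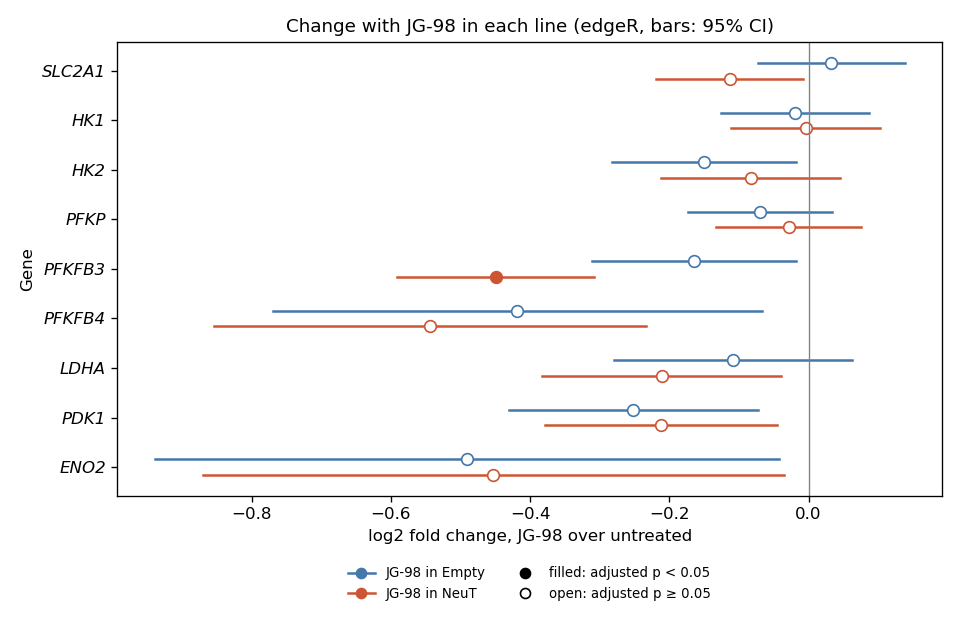
Log2 fold change with JG-98 (x axis, points with 95% intervals) for 9 of the genes (y axis) in Empty and in NeuT cells, where the filled point, PFKFB3 in NeuT at -0.45, passed an adjusted p-value of 0.05. All points but that of SLC2A1 in Empty lie below 0.

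The interaction of line and drug, which tests whether the drug response differs between lines, was called for none of the 10 genes by edgeR or by DESeq2, and 0.00565% of all genes tested were called. Of the 10, 1 had an unadjusted p under 0.05, against 7.79% of all genes. Without treated NeuT replicate 1, which leaves 1 library in that group, the interaction was -0.28 for LDHA and -0.33 for PFKFB3. The 95% interval of the difference was widest for SLC2A3 (-3.81 to 2.07), which rests on few counts, followed by ENO2 (-0.57 to 0.65) and PFKFB4 (-0.59 to 0.34), and for HK1, HK2, PFKP and PDK1 it lay within -0.20 to 0.28. The 1 gene called in the whole table was TXNIP, an arrestin-type inhibitor of glucose uptake. TXNIP went from 149 and 154 to 103 and 100 CPM in Empty and from 432 and 415 to 478 and 508 CPM in NeuT, log2 fold changes of -0.58 and 0.22, with an interaction of 0.80 (adjusted p = 0.000183 by edgeR).

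The rest of the pathway was counted from lists given by name and chosen with earlier results of these data known. Of 19 further glycolysis and fermentation genes, 14 were tested, and between the untreated lines 8 were higher and 1 lower in NeuT, so 9 of 14 were called against 42% of all genes tested, with a median log2 difference of 0.26. ALDOC (1.21) and ALDOA (0.81), which split fructose-1,6-bisphosphate, PGK1 (0.54), which makes ATP from 1,3-bisphosphoglycerate, and the isomerase TPI1 (0.40) were called with adjusted p in edgeR of at most 1.08e-05. LDHB was the lower one (-0.32, adjusted p = 0.0296 by edgeR). PGAM2 and PKLR, the muscle and the liver and red cell forms, had 0 counts in all libraries. With JG-98 none of the 14 was called by edgeR in either line, where 0.339% of all genes tested were called in Empty and 3.01% in NeuT. The medians were -0.04 in Empty and -0.11 in NeuT, against -0.00334 and 0.000213 for all genes tested.

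Of 14 other sugar and lactate transporters, 11 were tested, and 4 were higher and 1 lower in untreated NeuT. These 5 of 11 lie near the 42% called among all genes tested, so the count is not a result about transporters. The fructose transporter SLC2A5 went from 0.448 ± 0.085 to 2.78 ± 0.33 CPM (SD, n = 2 each; log2 difference 2.63, adjusted p = 1.79e-06 by edgeR), SLC2A6 was higher by 0.99, the lactate transporter chaperone BSG by 0.18, and SLC2A12 was lower (-1.02). SLC2A10 had 0 counts in all libraries. Of 13 further regulators, 12 were tested, with 4 higher and 4 lower (8 of 12 called, against 42% of all genes tested). TXNIP (1.48), the fructose-2,6-bisphosphatase TIGAR (1.04) and PDP1, which reactivates pyruvate dehydrogenase (0.73), were higher, and the mitochondrial pyruvate carrier subunit MPC1 (-0.72) was lower, with adjusted p in edgeR of at most 2.21e-06. With JG-98, TXNIP alone of these 12 was called in either line by edgeR, and the other 11 are not thereby shown to be unchanged. Among all genes tested, 0.339% were called in Empty and 3.01% in NeuT.

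Hypoxia-inducible genes outside glycolysis were all higher in NeuT. All 16 of the list were tested and called higher between the untreated lines, against 21.2% of all genes tested. Their log2 differences ran from 0.42 to 3.92 with a median of 1.11. This list was chosen with earlier results of these data known, so the count is a description and not an independent test. CA12, a carbonic anhydrase, went from 11.4 ± 0.94 to 85.5 ± 1.7 CPM (SD, n = 2 each; log2 difference 2.91), and the mitophagy receptors BNIP3L (1.20) and BNIP3 (1.31) and the lipase inhibitor ANGPTL4 (1.36) followed by size of p, all with adjusted p in edgeR of at most 4.97e-10. The same 16 were called higher under JG-98, with a median of 1.27. Within the lines, BNIP3 alone of the 16 was called, lower with JG-98 in both Empty (-0.37, adjusted p = 0.0468 by edgeR) and NeuT (-0.32, adjusted p = 0.0239 by edgeR), where 0.339% and 3.01% of all genes tested were called. Of 6 genes for the hypoxia factors and their turnover, 5 were higher in untreated NeuT. HIF1A itself, without drug, averaged 417 ± 13 CPM in Empty and 876 ± 28 CPM in NeuT cells (SD, n = 2 each) (log2 difference 1.07, adjusted p = 6.35e-11 by edgeR), while HIF1AN (0.29), ARNT (0.22) and VHL (0.34) differed less. None of the 6 was called with JG-98 in either line by edgeR. RNA levels do not measure HIF protein or the flux of glucose.

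**Figure D5:**
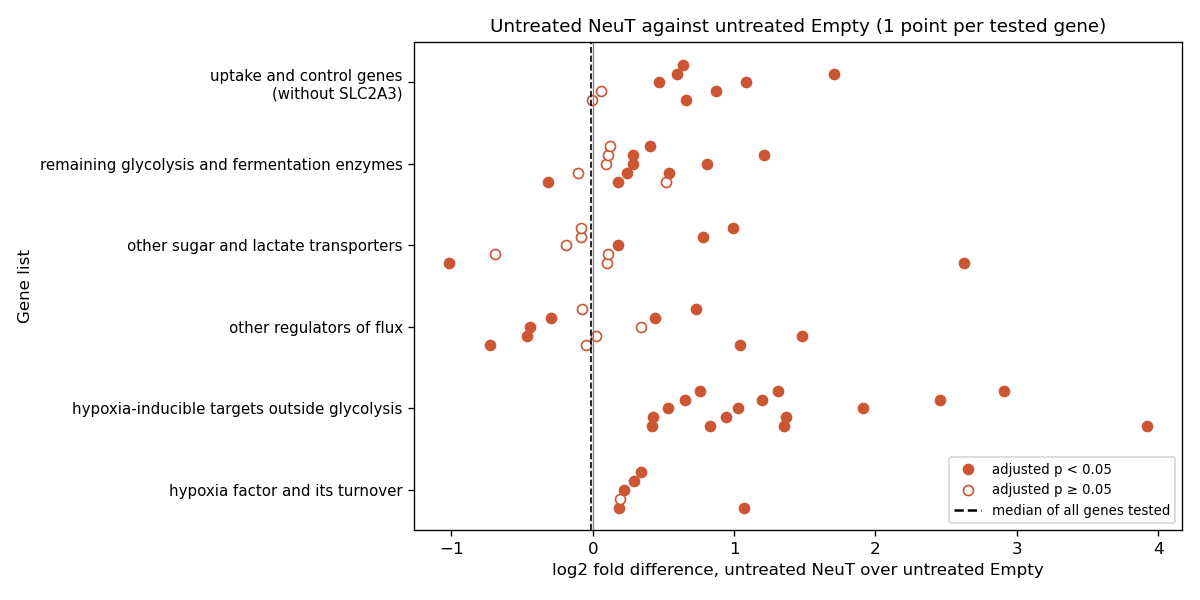
Log2 fold difference of untreated NeuT over untreated Empty (x axis) for each tested gene (points) of the uptake and control genes and of 5 further lists (y axis), filled where the adjusted p-value was under 0.05, with the median of all genes tested (-0.02) as a dashed line. All 16 hypoxia-inducible genes lie at 0.42 or above, and the remaining glycolysis enzymes run from -0.32 to 1.21.

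Across the 8 libraries, log2 CPM of PFKFB4 and PDK1 had a Pearson r of 0.991 and that of SLC2A1 and HK2 one of 0.967, while HK1 had an r between -0.00710 and 0.438 with the other 8 genes (SLC2A3 left out). These values describe 8 points in 2 separate lines that share the same groups, and mainly restate the gap between lines. By the fixed measure, the genes most like SLC2A1 among 13107 with at least 50 counts on average were PARP10 (r = 0.998), MYC (0.997) and IL1R1 (0.997), and those most like HK2 were NECTIN1 (0.999), B4GALT6 (0.998) and PTPN1 (0.997). An r of 0.95 was exceeded by 1084 genes for SLC2A1 and by 1052 for HK2, so the order among them is not informative. After the group means were removed, r with SLC2A1 was 0.798 for PARP10, 0.000729 for MYC and 0.873 for IL1R1. With HK2 it was 0.948 for NECTIN1, 0.975 for B4GALT6 and 0.940 for PTPN1. These values rest on the difference between 2 libraries in each of 4 groups. The genes were picked by r in the same libraries, so the values are a description only.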

How the data were processed

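RNA-seq counts of 8 MCF-10A libraries were analysed. The authors deposited raw counts per gene and gene lengths in featureCounts layout, per the file headers. The submitters' processing notes name Trim Galore 0.5.0, HISAT2 2.1.0, SAMtools 1.9, featureCounts 1.6.3, limma and GRCh38, while strand use and reads with several matches are not given in the sources used here. The authors' deposited tables, 1 per line, hold a log2 fold change, a log2 mean expression, a test score and p-values, per the file headers. Samples were grouped by title. Columns were matched to samples by name, which left 0 columns unassigned. Symbols were found for 60261 of 60617 identifiers.

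edgeR 4.0.16 (R 4.3.3) kept 17693 genes by filterByExpr (minimum count 10, total 15), scaled by TMM, and fitted group means to all 8 libraries with the robust quasi-likelihood test. Benjamini-Hochberg adjustment covered all 17693 genes, with a threshold of 0.05. Standard errors were taken as log2 change over root F. An exact permutation test of 2 against 2 libraries cannot go below 0.333. Depth was 37341458 to 56861971 counts. The members, lists and tests were chosen with earlier results of these data known. All members are named, and from each list at most 4 genes per comparison, by smallest p, and genes at 0. LDHB, ENO1, the paralogue shares and the scaling alternative for the SLC2A3 ratio were chosen after seeing the data. The scripts were tested on simulated data. Alternatives were RLE or no scaling, no or a stricter filter, DESeq2 1.42.0, a replicate block, fits of 4 libraries and leaving out each library.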

Additional observations from a re-analysis of the deposited data

How the results depend on the processing

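Of the 9 genes other than SLC2A3, 7 were called between the lines in each comparison under all alternatives run, except that 6 were called, ENO2 being lost, without untreated Empty replicate 1 or untreated NeuT replicate 1 (without drug) and without treated Empty replicate 1 or treated NeuT replicate 1 (with JG-98). For JG-98 in Empty, genes called went from 60 to 282 without a filter, 151 with DESeq2, 205 with only 4 libraries and 9 to 417 with 1 library left out, and members called from 0 to 1 without a filter and 0 to 1 with 1 library left out. For JG-98 in NeuT, genes called went from 533 to 1000 without a filter, 185 with 4 libraries and 132 (without untreated NeuT replicate 1) to 2133 (without treated NeuT replicate 1), and members called from 1 to 3 without a filter, 2 with DESeq2 and 1 to 4 with 1 library left out. For the interaction, genes called went from 1 to 2 with total counts, 138 without a filter, 26 with DESeq2 and 1 to 777 with 1 library left out, and members called from 0 to 2 without treated NeuT replicate 1. With total counts, 40.7% of calls between the untreated lines were higher in NeuT (50.5% under TMM), and 41.0% with JG-98 (52.0%). Each fit with 1 library left out has 1 library in that group, so the spread within that group is not measured. The causes were not tested.

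Signs changed for uncalled values near 0. HK1 between untreated lines was 0.00339 with the stricter filter, 0.00146 with DESeq2 and 0.00146 with RLE, and under JG-98 -0.0668 with total counts. PFKP between untreated lines was -0.00994 with total counts. With 1 library left out, HK1 ran from -0.0129 to 0.0284 between untreated lines, -0.0218 to 0.0404 with JG-98, -0.0519 to 0.0102 for JG-98 in Empty, -0.0303 to 0.0112 in NeuT and -0.0159 to 0.0477 for the interaction. Interactions ran from -0.29 to 0.34 for ENO2, -0.00774 to 0.12 for HK2, -0.28 to 0.0362 for LDHA, -0.10 to 0.14 for PDK1 and -0.370 to 0.0612 for PFKFB4.

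The labels do not say that a replicate number marks a shared culture or day, so the samples were not treated as paired. Differences between replicates correlated between groups with an r of -0.101 to 0.0640, and of 0.244 between the treated groups of the lines. The replicate block gave 66 genes for JG-98 in Empty, 593 in NeuT, 1 for the interaction, and 7497 and 7451 between the lines without and with drug, with the same numbers of members called. SLC2A3 had at most 3 counts per group in Empty cells, which leaves its ratios wide.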
